A study of Arabidopsis thaliana with 6 samples.

Results

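The transcript levels of 7 regulators of anthocyanin synthesis were compared between wild-type and gemin2 mutant plants of Arabidopsis thaliana. The regulators were taken by locus from the 33602 loci of the gene count table. They are the R2R3-MYB activators PAP1 (AT1G56650) and PAP2 (AT1G66390), the bHLH proteins TT8 (AT4G09820), GL3 (AT5G41315) and EGL3 (AT1G63650), the WD40 repeat protein TTG1 (AT5G24520) and the MYB repressor MYBL2 (AT1G71030). The deposited table lists EGL3 as ATMYC-2 and TTG1 as URM23, both older names of these loci. All 7 were in the table, and 6 passed the filter on low counts, PAP2 being too low. With them came 13 introns of PAP1, PAP2, EGL3 and MYBL2 and 3 splicing bins (stretches that only some annotated transcripts include) of EGL3 and TTG1. The intron counts used here cover chromosomes 1 to 3 only, because the intron table at hand ends within chromosome 3. Introns of TT8, GL3 and TTG1, on chromosomes 4 and 5, could therefore not be analysed here.

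Anthocyanins are red and purple flavonoid pigments that accumulate in the epidermis and outer cell layers of Arabidopsis seedlings, above all under strong light, sugar or stress. Their late synthesis genes are switched on by a complex of a MYB activator, a bHLH partner and the WD40 protein TTG1, known as the MBW complex. PAP1 is the main MYB of this complex in seedlings, TT8, GL3 and EGL3 overlap as its bHLH partners, and MYBL2 occupies the bHLH partner without activating. GL3, EGL3 and TTG1 also act with other MYBs in trichome and root hair fate, and TT8 in the seed coat.

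Each genotype was represented by 3 RNA-seq libraries of polyadenylated RNA from whole plants of the Col ecotype. The plants were 9 days old and had been kept at 22 °C in constant light on medium with agarose. The wild type (WT) carried no named mutation, and the mutant is called gemin2-1 in the headers of the deposited tables. The sources used here do not give the nature of that allele or the number of independent lines. GEMIN2 is a protein of the complex that loads Sm proteins onto spliceosomal small nuclear RNAs. Whether the 3 libraries of each genotype stem from separate sowings is unstated, so p-values reflect no more than how far these samples differ among themselves, possibly for technical reasons.

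The libraries held 14049163 to 16732098 gene reads in WT and 15467372 to 17217408 in gemin2. GEMIN2 (AT1G54380) itself was read 239, 262 and 221 times in the WT libraries A to C, against 71, 77 and 74 times in the mutant libraries A to C, a log2 fold change of -1.82 (SE 0.0968). Library letters are those of the deposited columns, and reads below are always given in the order A to C. Reads of organelle loci made up 0.182% to 0.480% of gene reads in WT and 0.539% to 0.815% in gemin2. All 7 root markers and all 3 markers of photosynthetic cells had reads, as whole plants should give. The root markers summed to 471 to 516 CPM (read counts scaled to library size) in WT and 367 to 422 CPM in gemin2, but without the iron transporter gene IRT1 the order turned, with 158 to 178 CPM and 182 to 198 CPM. Of the 7, PHO1 and SCR rose, IRT1 and RHD6 fell, 2 did not pass and 1 was too low to test (edgeR). The markers of photosynthetic cells summed to 17816 to 19706 CPM and 20788 to 22154 CPM. The antenna genes CAB2 (log2 fold change 0.81) and LHCB2.1 (0.54) rose, while RBCS1A, the most abundant of the 3, was at -0.04 (edgeR adjusted p = 0.637). Of the seed coat markers, BAN had 1 read in WT and 0 in gemin2, and TT12 had 91 and 110. The part of these differences in the results below was not tested. With organelle and rRNA loci left out, PAP1 was at the same log2 fold change, -2.62. Those loci held at most 0.815% and 0.787% of gene reads, so leaving them out could hardly move it. That fit does not bear on the marker differences. In such bulk samples, fewer cells of a type and less RNA per cell cannot be told apart.

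Of the 6 regulators tested, 3 fell in gemin2 and 0 rose (adjusted p under 0.05 by the quasi-likelihood test of edgeR). PAP1 and TT8 fell several-fold, and the repressor MYBL2 fell slightly. The bHLH genes EGL3 and GL3 and the WD40 gene TTG1 did not pass. Among all 20762 genes tested, 18.9% were called lower and 17.8% higher. No member rose at an unadjusted p under 0.05 either, and DESeq2 called 0 higher and 2 lower, without MYBL2. The share of all genes that DESeq2 called is not given, here or below, so its counts have no background beside them. Fold changes below are gemin2 over WT on the log2 scale, levels are means ± SD of 3 libraries, and CPM values are scaled by TMM library sizes.

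PAP1, the MYB activator whose overexpression turns whole plants purple, lies on the minus strand at chr1:21233595-21235137 (TAIR10). The WT libraries gave 94, 119 and 172 reads of PAP1 and the mutant libraries 25, 18 and 25. Scaled to CPM, WT was at 6.59, 7.06 and 12.3 and the mutant at 1.63, 1.04 and 1.54. WT C stood above the other WT libraries, and the lowest WT library was still well above every mutant library. The level went from 8.65 ± 3.17 CPM in WT to 1.40 ± 0.316 CPM in gemin2, or 16.2% of the WT mean. The log2 fold change was -2.62 (SE 0.264, 95% interval -3.18 to -2.06, edgeR adjusted p = 2.47e-06). Without WT C it was -2.29 and the call held. Only 17 of all tested genes, 0.0819%, were called lower with a fold change as large as that of PAP1 or larger. The authors' deposited table of differentially expressed genes gives PAP1 a log2 ratio of -2.62 and a false discovery rate of 1.58e-20. PAP1 is the only regulator of the 7 among the 1226 genes of the authors' deposited table. The smallest absolute log2 fold change in that table is 0.586, so MYBL2, at -0.36, lies below the range it lists. TT8 is not among the loci that the authors list as expressed, so its absence there is no result about its change.

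**Figure D1:**
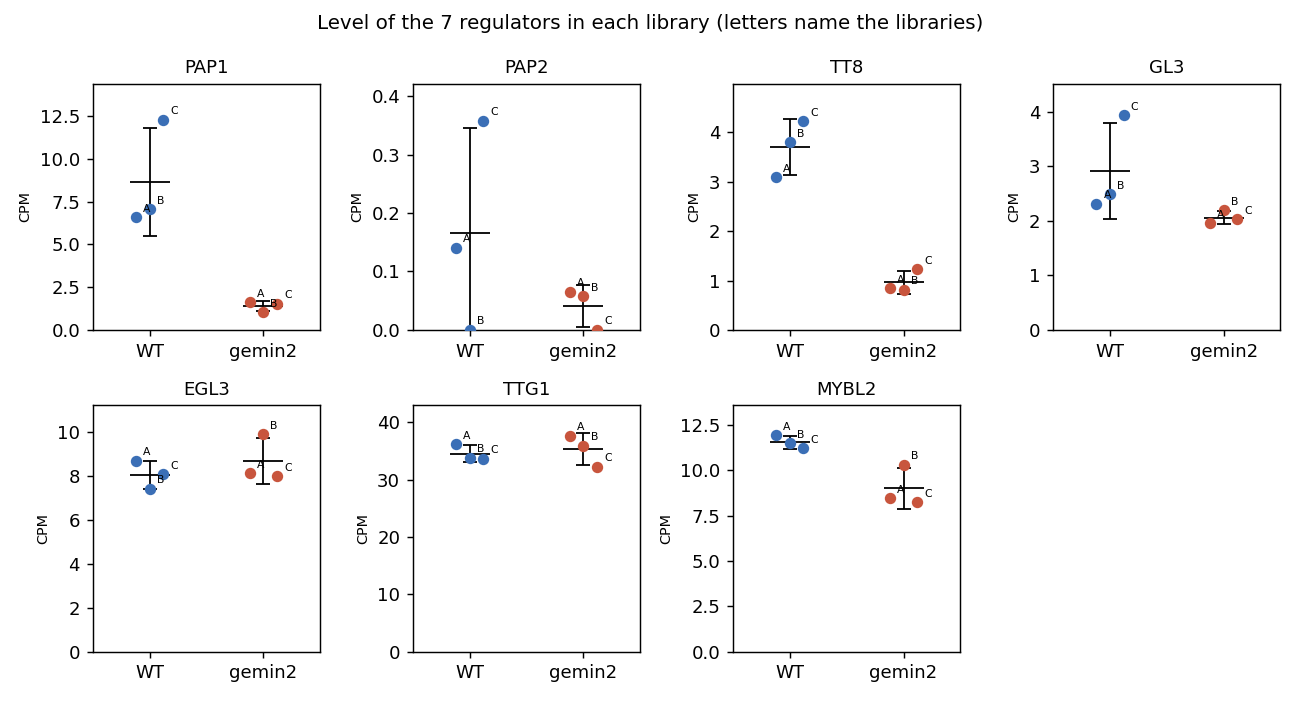
CPM of each regulator in the 3 WT and 3 gemin2 libraries (points, with the letter of the library), with the mean and SD in black; each panel has its own axis from 0. The mutant points of PAP1 and TT8 lie far below every WT point, those of MYBL2 slightly below, and those of EGL3 and TTG1 overlap with the WT points; the SD bar of PAP2 in WT is cut at 0.

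PAP2, the closest relative of PAP1 and also able to activate the pathway, was near the limit of detection. It lies on the plus strand at chr1:24763957-24765541. Only 2, 0 and 5 reads were counted in WT, against 1, 1 and 0 in the mutant. The groups overlapped, and 3 reads correspond to 0.174 to 0.215 CPM in these libraries. The ratio of gemin2 to WT was 0.264 with a 95% counting interval of 0.0267 to 1.38, so no change was detectable at this depth. The remaining genes of this MYB clade, which lie near PAP2 on chromosome 1, were as low. MYB113 (AT1G66370) had 2 reads in WT and 2 in gemin2, and MYB114 (AT1G66380) had 0 in every library. PAP1 held nearly all counted reads of its clade in both genotypes.

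The coding sequences of PAP1 and PAP2 were 84.3% identical over 747 aligned bases, and the longest identical run was 42 bases. PAP2 and MYB114 were closer, at 91.2% over 420 aligned bases with a longest identical run of 67 bases. PAP1 and MYB114 were at 87.6%, with a run of 33 bases. Neither the read length nor the rule for reads with several matches is given in the sources used here, so the split of reads between these genes is uncertain. PAP1 had 385 reads and PAP2 7 over the WT libraries. None of the 7 loci overlaps another annotated gene in RefSeq.

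TT8, the bHLH partner that is itself transcribed under control of the MBW complex, lies on the plus strand at chr4:6182023-6186493. Its WT libraries held 44, 64 and 59 reads, and its mutant libraries 13, 14 and 20. The groups did not overlap, the highest mutant library being gemin2 C at 1.23 CPM and the lowest WT library WT A at 3.09 CPM. The level went from 3.70 ± 0.573 CPM to 0.962 ± 0.233 CPM, or 26.0% of the WT mean. The log2 fold change was -1.94 (SE 0.233, 95% interval -2.43 to -1.44, edgeR adjusted p = 1.37e-05). Of all tested genes, 50 (0.241%) were called lower with a change of this size or larger. TT8 does not appear among the 16962 loci that the authors' deposited table lists as expressed above their threshold, nor do GL3 and PAP2.

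The upstream sequences of the activators are shown because PAP1 and TT8 fell while PAP2 was hardly read. Each is the 250 bases before the annotated RefSeq start, 5′ to 3′ on the gene's strand, in the TAIR10.1 assembly. The stretches are chr1:21235293-21235542 (minus), chr1:24763691-24763940 (plus) and chr4:6181631-6181880 (plus). Capitals mark matches, on either strand, to the bHLH words CACGTG (G-box) and CANNTG (E-box, which includes the G-box) and to the MYB words ACCNAAC and ACCNACC.
PAP1 upstream: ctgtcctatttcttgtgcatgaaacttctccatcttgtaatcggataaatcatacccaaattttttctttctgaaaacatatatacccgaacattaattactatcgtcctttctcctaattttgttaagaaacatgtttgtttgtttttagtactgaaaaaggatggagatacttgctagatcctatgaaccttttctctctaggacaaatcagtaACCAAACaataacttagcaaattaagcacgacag
PAP2 upstream: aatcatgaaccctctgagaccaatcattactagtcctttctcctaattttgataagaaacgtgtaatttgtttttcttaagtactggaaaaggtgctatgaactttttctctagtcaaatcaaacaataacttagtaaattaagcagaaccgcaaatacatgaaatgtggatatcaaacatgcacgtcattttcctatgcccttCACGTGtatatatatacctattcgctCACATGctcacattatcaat
TT8 upstream: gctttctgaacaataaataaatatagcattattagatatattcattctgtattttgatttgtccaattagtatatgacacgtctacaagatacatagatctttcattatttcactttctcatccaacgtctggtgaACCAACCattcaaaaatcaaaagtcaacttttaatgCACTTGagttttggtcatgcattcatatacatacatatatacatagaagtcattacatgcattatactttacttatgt
PAP1 had 1 ACCNAAC match, PAP2 had 1 CACGTG and a further CANNTG match, and TT8 had 1 CANNTG and 1 ACCNACC match. Among 27443 promoters of protein-coding genes of the same length, 6.49% held CACGTG, 55.3% CANNTG, 14.5% ACCNAAC and 6.10% ACCNACC. PAP1 and PAP2 shared an identical run of 19 bases upstream, against 10 bases between PAP1 and TT8. These matches are a description of the letters only.

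GL3 and EGL3 are bHLH proteins that act with TTG1 in trichome formation as well as in pigment synthesis. GL3 (plus strand, chr5:16529455-16532879) was counted 33, 42 and 55 times in WT and 30, 38 and 33 times in the mutant. In CPM the mutant libraries lay at 1.95 to 2.20 and the WT libraries at 2.31 to 3.93, so the groups did not overlap. In all, 4 regulators (PAP1, TT8, GL3 and MYBL2) had every mutant library below every WT library and 0 the reverse. Among all tested genes, 24.7% lay below in this way, 23.4% above, and 48.1% did not overlap in either direction. WT C was again the highest. The log2 fold change was -0.48 (SE 0.225, 95% interval -0.96 to -0.01), with an unadjusted p of 0.0476 and an adjusted p of 0.105 by edgeR. Without WT C it was -0.22 (adjusted p = 0.479, edgeR), so the size of the GL3 difference rested largely on that library.

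EGL3 (plus strand, chr1:23599413-23602902) had 124, 125 and 113 reads in its WT libraries, against 125, 171 and 130 in the mutant. Its levels were 8.07 ± 0.641 CPM and 8.68 ± 1.06 CPM, with overlapping groups and gemin2 B the highest. The log2 fold change was 0.11 (SE 0.116, edgeR adjusted p = 0.475), with a 95% interval of -0.13 to 0.36. GL3 and EGL3 were 81.1% identical in coding sequence, with a longest identical run of 38 bases. Only reads no longer than that run could match both coding sequences exactly. As the read length is not given in the sources used here, whether reads were split between them is uncertain.

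TTG1, the WD40 protein on which the MYB and bHLH proteins assemble, was the most abundant of the 7 and differed least. It lies on the minus strand at chr5:8370587-8372847. WT gave 516, 570 and 470 reads, the mutant 578, 621 and 524. The levels of 34.5 ± 1.44 CPM and 35.3 ± 2.77 CPM overlapped. The log2 fold change of 0.03 (SE 0.0658, edgeR adjusted p = 0.754) had a 95% interval of -0.11 to 0.17.

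MYBL2, the repressor that binds the bHLH proteins through a single MYB repeat, lies on the minus strand at chr1:26795123-26796364. Of its reads, 170, 194 and 157 fell in the WT libraries, and 130, 178 and 134 in the mutant ones. In CPM the WT libraries lay at 11.2 to 11.9 and the mutant libraries at 8.24 to 10.3, with gemin2 B closest to WT and no overlap. The log2 fold change was -0.36 (SE 0.102, 95% interval -0.57 to -0.14, edgeR adjusted p = 0.0132). The call was lost with DESeq2 (-0.36, adjusted p = 0.0621) and, by edgeR, without gemin2 C (-0.29, adjusted p = 0.0545).

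**Figure D2:**
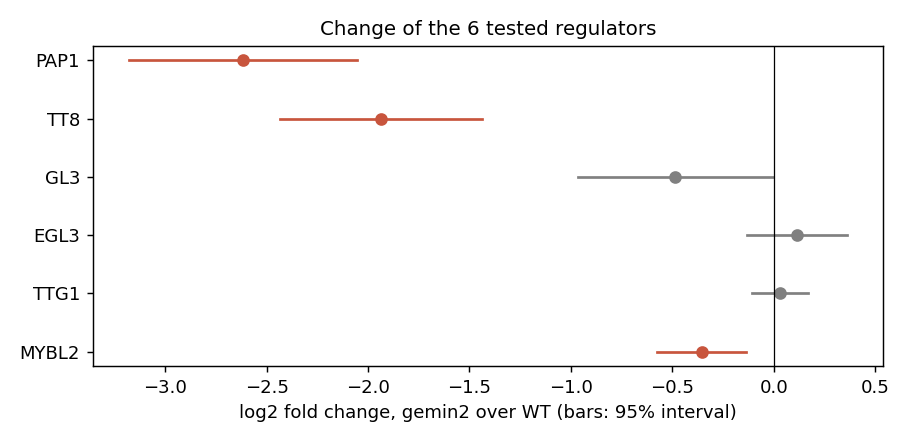
log2 fold change of the 6 tested regulators, gemin2 over WT, with its 95% interval from the edgeR fit; red marks an adjusted p under 0.05 and grey the others. PAP1 at -2.62 and TT8 at -1.94 stand apart from MYBL2 at -0.36, and the intervals of EGL3 and TTG1 span 0.

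Ratios of 2 regulators within a library need no scaling between libraries. The ratio of PAP1 to MYBL2 reads, activator to repressor, had log2 values of -0.85, -0.70 and 0.13 in WT, against -2.36, -3.27 and -2.40 in the mutant libraries. Its mean moved from -0.47 ± 0.530 to -2.67 ± 0.516, a difference of -2.20, and the groups did not overlap. Two-sided exact permutation of the 6 libraries gave p = 0.10, the smallest that 3 against 3 libraries allow, and an adjusted p of 0.20 over the 6 ratios. The ratio of TT8 to EGL3 reads differed by -2.02 and that of GL3 to EGL3 by -0.56, both with the same exact p. Without WT C the latter was -0.32, so its size rested in large part on that library. The ratio of PAP1 to TT8, the members that fell most, differed by -0.64 (exact permutation p = 0.20), with overlapping groups. That of PAP1 to PAP2 differed by -1.58 (exact permutation p = 0.30), was -0.64 without WT B, and rests on the few PAP2 reads. That of EGL3 to TTG1 differed by 0.07 (exact permutation p = 0.50).

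Levels between genes were compared as RPKM, the CPM per kilobase of the effective width in the deposited table. In WT the order was TTG1 at 21.5 ± 0.892 RPKM, MYBL2 at 11.7 ± 0.356, PAP1 at 9.47 ± 3.47, EGL3 at 3.43 ± 0.273, TT8 at 2.02 ± 0.312, GL3 at 1.51 ± 0.460 and PAP2 at 0.168 ± 0.183 RPKM. The ranges over libraries overlapped between MYBL2 and PAP1 and between TT8 and GL3, and not between the other neighbours. In gemin2 the order was TTG1 at 21.9 ± 1.72 RPKM, MYBL2 at 9.13 ± 1.14, EGL3 at 3.69 ± 0.449, PAP1 at 1.53 ± 0.346, GL3 at 1.07 ± 0.0650, TT8 at 0.525 ± 0.127 and PAP2 at 0.0416 ± 0.0362 RPKM. There the ranges of PAP1 and GL3 met at 1.14 RPKM, and those of the other neighbours did not overlap. PAP1 thus stood above EGL3 in every WT library and below it in every mutant library.

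**Figure D3:**
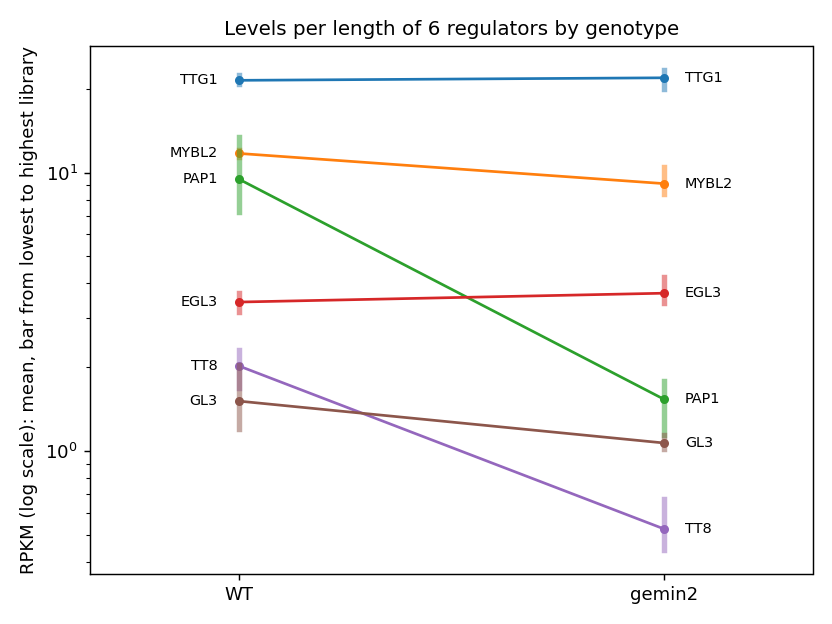
Mean RPKM of 6 regulators (log axis) in WT and gemin2, with thick bars from the lowest to the highest of the 3 libraries; PAP2, with libraries at 0, is left out. The line of PAP1 crosses that of EGL3 and the line of TT8 that of GL3, while TTG1 stays near 21.5 RPKM and 21.9 RPKM.

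The make-up of the bHLH partners differed accordingly. Of the summed RPKM of TT8, GL3 and EGL3, TT8 made up 25.6%, 31.8% and 29.6% in WT, compared with 9.36%, 7.64% and 13.1% in the mutant libraries. EGL3 went from 49.6 ± 6.09% to 69.7 ± 3.18% of the sum, and GL3 was at 21.4 ± 4.23% and 20.3 ± 0.484%. The TT8 and EGL3 shares did not overlap between genotypes and those of GL3 did. The shares add up to a whole, so the higher EGL3 share is no result separate from the lower TT8 share. EGL3 itself was at a log2 fold change of 0.11.

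In each tested regulator, the genes with the nearest profile were sought by the root mean square difference of centred log2 CPM over the 6 libraries, among 18570 genes with a mean log2 CPM of at least 1. Nearest to PAP1 were DFR (difference 0.209), which makes the leucoanthocyanidin precursors, the anthocyanin malonyltransferase gene 5MAT (0.268) and the vegetative storage protein gene VSP2 (0.290). DFR showed the same order of libraries as PAP1 within each genotype, which its choice as nearest over these same 6 libraries favours. Its levels were 49.4, 53.2 and 73.9 CPM in WT and ran from 10.5 CPM (gemin2 B) to 15.6 CPM (gemin2 A) in the mutant. Nearest to TT8 was the anthocyanin acyltransferase gene 3AT1 (AT1G03940, 0.165), followed by AT5G26270 (0.178) and AT4G22212 (0.187). MYBL2 was nearest to IQD22 (0.0400), AT3G55420 (0.0430) and AT5G11350 (0.0431). GL3 was nearest to SAUR26 (0.0757), AT1G77855 (0.0994) and AT4G13330 (0.102). EGL3 was nearest to ABCB23 (0.0307), AT1G34470 (0.0331) and AT4G37110 (0.0337). TTG1 was nearest to ATAN11 (0.00976), which encodes a related WD40 protein, PAO4 (0.0182) and NAXT1 (0.0196), all with nearly flat profiles. The libraries fall into the 2 genotypes, so no correlation was computed.

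Enzyme and transport genes of the pathway were counted in lists. Whether the regulators act on them in these plants was not tested. Of 11 late anthocyanin genes, 10 fell, 0 rose and 1 did not pass (edgeR). By the same test, 18.9% of all tested genes were called lower and 17.8% higher. The late genes had a median log2 fold change of -1.59, against -0.0010 over all tested genes. Among them, the glutathione transferase gene TT19, needed for pigment storage in the vacuole, fell by 2.12 on the log2 scale (SE 0.110), DFR by 2.14 (SE 0.145), 5MAT by 2.19 (SE 0.166) and 3AT1 by 1.89 (SE 0.117). All 6 early flavonoid enzyme genes, which also serve flavonol synthesis, fell in the edgeR fit, with a median of -0.30. CHI lost its call with DESeq2 (adjusted p = 0.0871) and, by edgeR, without WT A (0.0755) or gemin2 C (0.109), which leaves 5, whereas the 10 late genes were also called lower with DESeq2. They ranged from -0.18 for CHI to -1.12 (SE 0.101) for TT7, the flavonoid hydroxylase. CHIL and FLS1 were at -0.29 (SE 0.0470) and -0.36 (SE 0.0518). Without WT C, the library in which PAP1 was highest, DFR was at -1.95.

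Other regulators of the pathway changed less than PAP1 and TT8. Of the flavonol MYBs, MYB111 fell from 6.82 ± 0.464 CPM to 3.90 ± 0.477 CPM (-0.80, SE 0.139, edgeR adjusted p = 0.000355), MYB12 did not pass, and MYB11 was too low to test. Of 9 MYB repressors and inhibitors, 3 fell, 0 rose and 6 did not pass, with a median of -0.36. Among all tested genes, 18.9% were called lower by edgeR. DESeq2 called 1 of the 9 lower and 0 higher, without MYBL2 and MYB7, and its share over all genes is not given here. With so few calls, the count says nothing particular about these repressors. The 3 that fell by edgeR were MYBL2, MYB4, a repressor of phenylpropanoid genes, at -0.39 (SE 0.0657) and its relative MYB7 at -0.38 (SE 0.119). The R3-MYB inhibitors CPC, TRY, ETC1, ETC2 and CPL3, which compete for the same bHLH proteins, were among those that did not pass. CPL3 had the lowest estimate of the 9 (-0.61, SE 0.247, edgeR adjusted p = 0.0646), with overlapping groups. The edgeR count of lower genes was 4 with no filter on low counts, with the robust fit and without WT C. It was 2 without WT B and 1 without gemin2 C. Of the 5 nitrogen-responsive repressors and SPL factors, LBD38 fell by 0.28 (SE 0.0697) and LBD37 by 0.18 (SE 0.0681) in edgeR. The remaining 3 did not pass. Among all tested genes 18.9% were called lower by edgeR. DESeq2 called 1 of the 5 lower, and its share over all genes is not given here. Of 6 light regulators, COP1, the ubiquitin ligase that removes light-signalling factors including PAP1, rose by 0.20 (SE 0.0571), and HY5 and 4 others did not pass, a share near the 17.8% of all tested genes called higher. The calls of MYB7, LBD37 and COP1 were not stable: over 14 alternative settings their adjusted p-values (edgeR or DESeq2) ranged from 0.0161 to 0.108, from 0.00467 to 0.199 and from 0.00639 to 0.0541. Both MYB7 and LBD37 were lost with DESeq2 and, among others, without WT B or gemin2 C, and COP1 without gemin2 C, where LBD37 was at -0.12.

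**Figure D4:**
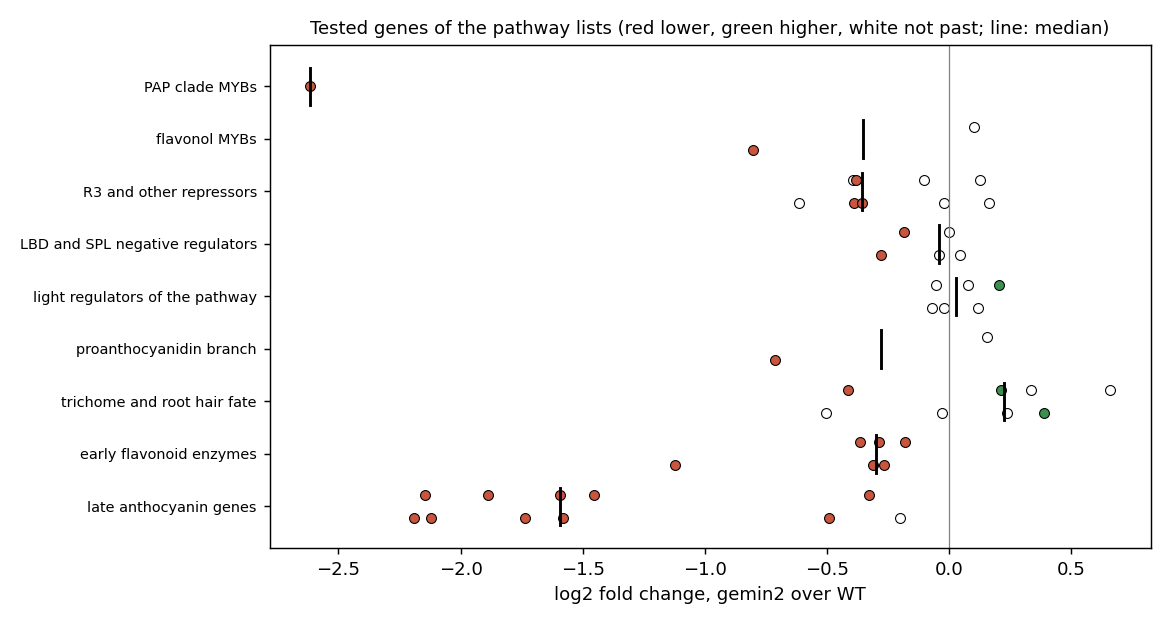
log2 fold change, gemin2 over WT, of each tested gene of 9 pathway lists (points, spread vertically only for legibility; PAP1 and MYBL2 are in their lists), coloured by the edgeR call, with the median of the list as a line. The late anthocyanin genes reach from -2.19 to -0.20, whereas the light regulators lie between -0.07 and 0.20.

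Few intron reads were found in the regulators. PAP1 I002 (chr1:21234429-21234968), the first intron in the direction of transcription, held 3, 5 and 7 reads in the WT libraries, against 0, 1 and 0 in the mutant. PAP1 I001 held 2 reads in each WT library and 1, 0 and 0 in the mutant. Both together made up 5.45 reads per 100 gene reads in WT (95% exact binomial interval 3.41 to 8.22, pooled over libraries) and 2.94 in gemin2 (0.358 to 10.2). The intervals overlap widely, so no difference in intron signal was detectable at this depth. They cover counting error only.

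In MYBL2, the introns I001 and I002 together gave 1.34 reads per 100 gene reads in WT (0.542 to 2.75) and 2.26 in gemin2 (1.09 to 4.12). MYBL2 I002 held 2, 0 and 2 reads in the WT libraries, and 2, 5 and 2 in the mutant. In EGL3, 7 introns gave 2.76 (1.33 to 5.02) and 3.52 (1.98 to 5.74) reads per 100 gene reads. Most of these lay in I002 on the side of the 5′ UTR, with 4, 2 and 1 WT reads against 3, 5 and 4 mutant reads. None of the 13 introns reached the minimum count for a test of its reads against those of the gene. Among the 4938 introns of chromosomes 1 to 3 that did, 9.4% were called. PAP2 had 1 intron read in all. No regulator of the 7 appears in the authors' deposited tables of altered introns and splicing bins. TT8, GL3 and PAP2 are not among the loci that the authors list as expressed, so their absence there is no result about their splicing.

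The donor sites of the MYB introns are shown because the U1 small nuclear ribonucleoprotein, whose assembly needs Sm proteins, pairs with the donor. Capitals mark the first bases of the intron, after 3 bases of exon.
PAP1 I002 donor: ctgGTatgtta
PAP2 I001 donor: ctgGTatgtta
MYBL2 I002 donor: ccgGTaactat
PAP1 I001 donor: tagGTattaat
PAP2 I002 donor: tagGTattgtt
MYBL2 I001 donor: tagGTtcgtat
All 13 introns began with GT and ended with AG in TAIR10.1 at the deposited coordinates. The donor of the first transcribed intron was the same in PAP1 and PAP2 over the letters shown.

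TTG1 held the only testable splicing bin. E003 (chr5:8371001-8371006, minus strand) is a 6-base stretch on the side of the 3′ UTR between a pair of acceptor sites. The 30 bases that end with it, chr5:8371001-8371030, are shown with both acceptor AGs in capitals.
TTG1 E003 acceptors: actatacatttcacttgatgtcAGgtgcAG
WT libraries gave 32, 31 and 31 reads of this bin and mutant libraries 40, 52 and 37. This was 6.08 ± 0.588 reads per 100 gene reads in WT and 7.45 ± 0.801 in gemin2. The log2 change relative to the gene was 0.31 (SE 0.177, 95% interval -0.05 to 0.67, edgeR with the gene count as offset, unadjusted p = 0.112, adjusted p = 0.535), and did not pass. Among 4648 tested bins, 4.71% were called. The skipped-exon bin E004 of TTG1 had 14 reads in WT and 16 in gemin2, and the alternative donor bin E003 of EGL3 had 7 and 11, both too few to test.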

How the data were processed

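The authors deposited raw counts per gene, per splicing bin and per intron, per the file headers. The submitters' processing notes name TAIR10 as the build and, as tools, edgeR 3.4.2, TopHat2 2.0.9 and R 3.0.2. A counting tool, read length and multi-mapping rule are not given there. The authors deposited log2 ratios and false discovery rates (adjusted p-values) in their own comparison table, per the file headers. No label ties column letters to replicate numbers. 0 columns of sample values were left out.

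Gene counts were fitted over the whole table with edgeR 4.0.16 in R 4.3.3 (filterByExpr, minimum count 10, TMM, quasi-likelihood F test, two-sided), adjusted by Benjamini-Hochberg with a threshold of 0.05. SE is the log2 fold change over the square root of F. Introns and bins used the gene count as offset (minimum count 5, mean of at least 20 gene reads). Ratios had 0.5 reads added to both counts. DESeq2 1.42.0 was an alternative. The fits were tested on simulated data. Sequences and identities came from the TAIR10.1 assembly with Biopython 1.88. Of 65405 table introns with a RefSeq strand, 98.5% had GT-AG ends there.

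The members and lists were chosen with earlier results of these data known. Named genes are the 7 members, each tested gene of the PAP clade and 3 nearest profiles per member. Each list gave up to 3 genes per direction with the smallest p among those called (2 where none was called). Named outside this rule were GEMIN2, the cell type markers, MYB113, MYB114, CHI, TT12, MYB12, MYB11, HY5, SPL9 and the R3-MYB inhibitors.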

Additional observations from a re-analysis of the deposited data

How the results depend on the processing

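The columns of both genotypes carry the letters A to C, which no label ties to replicate numbers or to a shared batch. Libraries of the same letter did not deviate together (correlations of -0.0055, -0.016 and -0.058), nor did those of unlike letters (-0.035 to 0.049). No pairing by letter was seen. With 3 libraries per genotype, whether a letter marks a shared sowing or batch cannot be told from these values. A fit with the letter as a replicate block called the same members, 3 lower and 0 higher (PAP1 -2.61, TT8 -1.94, MYBL2 -0.36), and 24 other pathway genes lower. PAP1 (-2.77 to -2.29 without 1 library, -2.64 to -2.61 under the other settings) and TT8 (-2.15 to -1.82 and -1.95 to -1.93) kept their direction and their call in all 14 alternatives. MYBL2 kept its direction. It lost its call with DESeq2 (-0.36) and without gemin2 C, and ranged from -0.47 to -0.29 without 1 library. TTG1, not called, ranged from -0.016 to 0.091 without 1 library and turned below 0 without gemin2 A, and its ratio with EGL3 ranged from -0.0095 to 0.16, turning without gemin2 B. The cause was not tested. The count of lower members was 2 or 3 and that of higher members 0 throughout. Of the other pathway genes, 23 were lower (18 to 25) and 3 higher (2 to 4). The shares of all genes called under the other settings are not given here. Among all tested genes, 18.9% were called lower and 17.8% higher in the main fit. The lower pathway genes there included 10 of the 11 late anthocyanin genes and all 6 early flavonoid enzyme genes. Leaving out organelle and rRNA loci, and using total reads with no normalisation factors, and the replicate block, were chosen after seeing the data. Depth limits PAP2 and all introns: 3 reads are 0.174 to 0.215 CPM.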

Other observations

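GL3, EGL3 and TTG1 also act in epidermal cell fate. Of 8 trichome and root hair fate genes, 2 rose, 1 fell and 5 did not pass (edgeR), with a median log2 fold change of 0.23. Among all tested genes 17.8% were called higher and 18.9% lower, so these counts are near the background. GL2, the homeobox gene downstream of the complex in trichomes and hairless root cells, rose from 51.6 ± 2.42 CPM to 59.9 ± 1.58 CPM (0.21, SE 0.0528, edgeR adjusted p = 0.00502), and SIM, an inhibitor of cell division in trichomes, rose by 0.39 (SE 0.104). TTG2, a WRKY gene activated by the same proteins, went from 6.05 ± 0.231 CPM to 4.55 ± 0.289 CPM (-0.41, SE 0.128, edgeR adjusted p = 0.0195). The call of TTG2 was lost with DESeq2 (adjusted p = 0.113) and, by edgeR, without WT A (0.0548), WT B (0.0539) or gemin2 C (0.0646).

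Of 7 proanthocyanidin genes, the seed coat branch in which TT8 and TTG1 also act, 2 had enough reads to be tested. The proton pump gene AHA10 fell from 2.13 ± 0.375 CPM to 1.29 ± 0.111 CPM (-0.71, SE 0.237, edgeR adjusted p = 0.0280). The transporter gene TT12 was at 2.02 ± 0.0752 CPM and 2.25 ± 0.255 CPM and did not pass. AHA10 lost its call with DESeq2 (adjusted p = 0.119) and, by edgeR, without any single library other than WT B, with adjusted p-values of 0.0503 to 0.110. The authors' deposited table of altered introns lists introns of DFR, CHI, COP1, GL2 and SPL9 among the pathway genes. The share of all loci with an entry there is not given here, nor is the direction of these entries. They therefore say nothing particular about the pathway. In the edgeR fit used here, 9.4% of 4938 tested introns were called.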
